A study of Mus musculus with 16 samples.

Results

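The protein kinase C family and the memory kinase PKMzeta were followed in the transcriptome of CA1, the output field of the hippocampus. Members were the 7 genes whose symbols the files give as Prkcz, Prkci, Prkca, Prkcb, Prkcd, Prkce and Wwc1, out of 46403 gene symbols. They were chosen by name, as kinases of memory maintenance and a partner protein, and together they hold 46 of the 111706 transcripts quantified. RNA was sequenced from the dissected CA1 subfield of 16 mice. Of these, 8 were Fmr1-KO mice, which lack FMRP, the RNA-binding protein lost in fragile X syndrome, and 8 were wild type (WT, labelled C57BL/6). Every mouse of both genotypes had been a yoked control in an active place avoidance task, a test of spatial memory in which a yoked animal receives no shock that it can learn to avoid by place. The sources used here do not give age, sex, time of dissection or the Fmr1 allele. Each library carries the code of a separate animal, and genotype is the only factor the labels define. The codes end in B or D, 4 of each per genotype, and the labels do not say what the letter means.

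Protein kinase C enzymes phosphorylate serines and threonines and fall into 3 classes by what switches them on. The conventional enzymes (among them alpha and beta, from Prkca and Prkcb) need calcium and diacylglycerol, the calcium-independent enzymes (delta and epsilon, from Prkcd and Prkce, with eta and theta from Prkch and Prkcq) need diacylglycerol alone, and the atypical enzymes (zeta and iota/lambda, from Prkcz and Prkci) need neither. In forebrain neurons a promoter inside Prkcz makes a separate mRNA for PKMzeta, the catalytic domain of the zeta enzyme without its regulatory domain, which is active without a second messenger and has been studied as a kinase that maintains long-term potentiation and place avoidance memory. Wwc1 encodes KIBRA, a scaffold that binds PKMzeta and slows its breakdown. Only RNA was measured here, not the amount or activity of any kinase.

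Most estimated counts of the zeta gene were assigned to the transcript of its internal start. Prkcz lies on the minus strand of chromosome 4 (GRCm38, 155260129 to 155361361). Of its 10 transcripts, Prkcz-001 starts at the upstream promoter and encodes the full enzyme of 592 codons in 18 exons, whereas Prkcz-002 starts 15.6 kb further downstream and encodes 409 codons in 15 exons, the PKMzeta form. The bases around each start are printed because the 2 mRNAs differ in the promoter that makes them. Both windows come from the RefSeq promoter table for GRCm38.p6, hold 250 bases before the RefSeq start and 10 from it on, and are written 5′ to 3′ on the minus strand. The upstream window covers chr4:155361419-155361678 and the internal window chr4:155345780-155346039. Capitals mark ATTGG, which is the CCAAT box read on the other strand, in the upstream window, and the cyclic AMP response element TGACGTCA in the internal window.
Prkcz full-length start: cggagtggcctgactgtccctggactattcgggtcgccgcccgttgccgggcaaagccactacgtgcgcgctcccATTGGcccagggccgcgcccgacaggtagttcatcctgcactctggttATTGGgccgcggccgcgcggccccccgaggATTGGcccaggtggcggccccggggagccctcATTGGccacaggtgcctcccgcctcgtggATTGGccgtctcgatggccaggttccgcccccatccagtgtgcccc
Prkcz internal start: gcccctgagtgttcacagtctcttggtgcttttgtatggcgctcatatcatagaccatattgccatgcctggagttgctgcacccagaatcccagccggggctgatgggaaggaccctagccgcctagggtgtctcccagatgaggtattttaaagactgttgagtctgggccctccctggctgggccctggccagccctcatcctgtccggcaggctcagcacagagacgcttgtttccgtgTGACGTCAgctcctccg

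The upstream window was 70.8% G and C with 25 CpG dinucleotides and held 5 matches to CCAAT and 2 to the GC box GGGCGG, none of them overlapping. The internal window was 58.5% G and C with 8 CpG dinucleotides and held neither motif. It held 1 match to TGACGTCA, which ends on the RefSeq start base and lies 16 bases before the start of Prkcz-002 in GENCODE. The TATA box TATAAA was in neither window. Searched on both strands of 32851 promoter windows of the same length, TGACGTCA was in 1.67%, CCAAT in 34.6%, GGGCGG in 33.4% and TATAAA in 12.7%. A match describes the letters and does not show that a factor binds there.

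**Figure D1:**
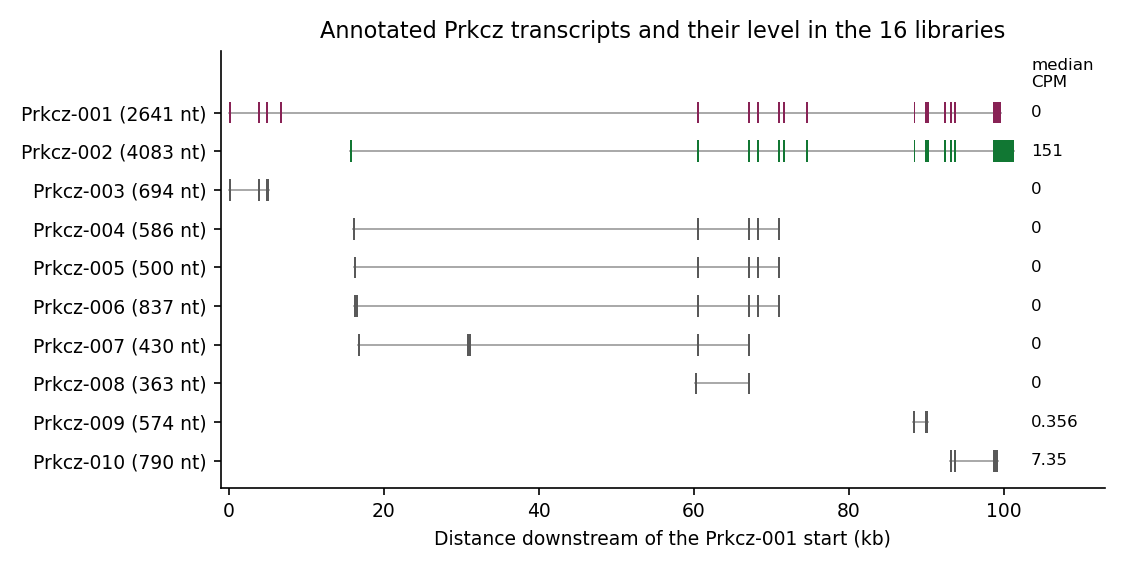
Exons (boxes) of the 10 annotated Prkcz transcripts, drawn to scale by distance in kb downstream of the Prkcz-001 start, with each transcript's length in nucleotides and its median level over 16 libraries in TMM-normalised CPM at the right. Prkcz-002 (green) has a median of 151 CPM and Prkcz-001 (purple) a median of 0, although they share their exons from 60.3 kb on.

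Over the 16 libraries together, Prkcz-002 took 5840 of the 6472 estimated counts of the gene, or 90.2%, and Prkcz-001 took 201, or 3.11%. An estimated count is the number of reads that the authors' quantification assigned to a transcript, and levels below are counts scaled to a common library size by TMM (CPM). Prkcz-002 ranged from 122 to 207 CPM in Fmr1-KO, with a median of 148, and from 138 to 235 CPM in WT, with a median of 154. The ranges of the genotypes overlapped over most of their width. Prkcz-001 had fewer than 0.5 estimated counts in 11 libraries, 6 of them Fmr1-KO and 5 WT. It was above that in 5 libraries, with 8.02 counts in Fmr1-KO replicate 2, 99.6 in Fmr1-KO replicate 3, 32.5 in WT replicate 2, 18.6 in WT replicate 5 and 42.5 in WT replicate 8. As a share of Prkcz these were 2.90%, 19.3%, 6.01%, 4.25% and 7.81%. The libraries with the full-length form were thus spread over both genotypes, and 1 Fmr1-KO library held the highest share. In the 11 libraries under 0.5 counts, a floor of 3 counts corresponds to between 1.002 and 9.03 CPM, or 0.526% to 5.66% of Prkcz, and it covers counting error only. The full-length transcript as annotated was not detected in these 11 libraries, which does not show it to be absent. Reads of this form that were assigned to Prkcz-002 are not covered by the floor. Fmr1-KO replicate 2, with 1480966 total counts, held 8.02 counts of this form, and Fmr1-KO replicate 7, with 2942425, held 0. The part of depth was not tested. Of the 2611 stretches of 31 bases in Prkcz-001, 473 are missing from Prkcz-002 and 102 are in no other Prkcz transcript, so the estimate of this form rests on few positions. Of the 4053 stretches in Prkcz-002, 1915 are missing from Prkcz-001. Most of these lie in its longer last exon, which ends at 101.2 kb against 99.64 kb, and not in its own first exon (15.6 to 15.9 kb). Reads in that end are assigned to Prkcz-002 whichever start made the RNA, and reads of the start alone were not separated here.

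No difference between the genotypes passed the test for either form. The share of Prkcz-002 among the counts of the 2 forms was 97.0 ± 7.14% (SD, n = 8) in Fmr1-KO and 97.6 ± 3.52% (n = 8) in WT, a difference of -0.51 percentage points (two-sided exact permutation test over 12870 arrangements, p = 0.949, adjusted p = 0.949 over 10 transcript measures). As a level, Prkcz-002 had a log2 fold change of -0.11 (SE 0.13, Fmr1-KO over WT; 95% interval -0.38 to 0.15; edgeR quasi-likelihood test, adjusted p = 0.9999). In Fmr1-KO, 3 of 8 libraries were above the WT median. Without WT replicates 3 and 6 the log2 fold change was -0.06.

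**Figure D2:**
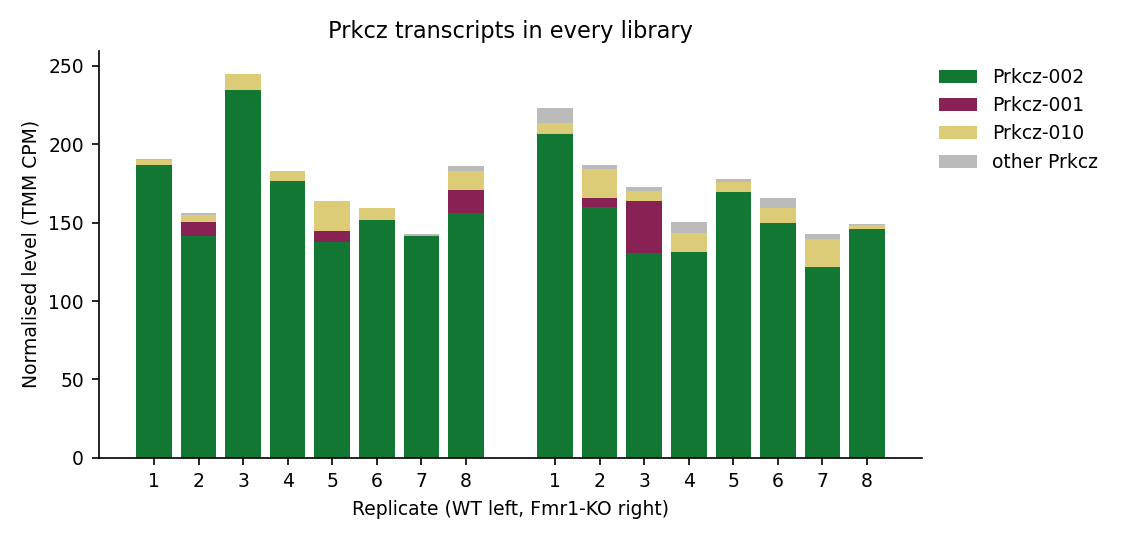
Stacked bars of the level of each Prkcz transcript in CPM, from 0, in the 8 WT (left) and 8 Fmr1-KO (right) libraries. Green Prkcz-002, the PKMzeta form, fills 75.5% to 99.3% of every bar, and purple Prkcz-001 is visible in 5 libraries.

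Length alone did not separate the enzyme forms. The PKMzeta mRNA is the longest of the gene, at 4083 nt, because of a long last exon, and the full-length mRNA has 2641 nt, so a limit of 2000 nt puts both in the long class. The other 8 transcripts, from 363 to 837 nt, are short annotated pieces, of which Prkcz-010, a processed transcript at the 3′ end of the gene with no coding region, held the most counts. Of the 760 stretches of 31 bases in Prkcz-010, 70 are in no other Prkcz transcript. The division of reads between it and the long forms is therefore uncertain. The long class had means of 157 ± 26.3 CPM (Fmr1-KO) against 170 ± 30.9 CPM (WT; n = 8 each; exact permutation p = 0.393). The short class had means of 14.3 ± 6.77 CPM (Fmr1-KO) against 8.62 ± 6.09 CPM (WT; exact permutation p = 0.0970). As a share of Prkcz, the short class ranged from 2.19% to 14.7% in Fmr1-KO, with a median of 8.48%, and from 0.670% to 11.9% in WT, with a median of 3.85%. Of the Fmr1-KO libraries 7 of 8 were above the WT median, but the ranges overlapped from 2.19% to 11.9%. The mean shares were 8.51 ± 4.40% and 4.83 ± 3.59%, a difference of 3.68 percentage points that did not pass the test (exact permutation p = 0.0897, adjusted p = 0.242 over the 10 measures). The difference was 1.11 points among protein-coding transcripts only (exact permutation p = 0.0238), with shares of 1.24% and 0.131%, and 15.4 points as a share of deposited TPM (p = 0.0420), with shares of 40.5% and 25.1%. The coding shares rest on few counts. Prkcz-006, the leading short coding form, had at most 13.4 estimated counts in Fmr1-KO (replicate 4) and 4.22 in WT (replicate 8). TPM is scaled by effective length, so few counts of short forms weigh more there. Omitting Fmr1-KO replicate 8 gave 4.58 points (exact permutation p = 0.0357) and omitting WT replicate 5 gave 4.68 (p = 0.0286). None of these p-values is adjusted. Prkcz-010 had a log2 fold change of 0.36 (SE 0.63, edgeR adjusted p = 0.9999), with 4 of 8 Fmr1-KO libraries above the WT median. It was 0.17 without WT replicate 7 and 0.72 without WT replicate 5.

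As a whole gene, Prkcz ranged from 143 to 223 CPM in Fmr1-KO, with a median of 169, and from 143 to 245 CPM in WT, with a median of 173. The groups covered nearly the same range. Its log2 fold change was -0.06 (SE 0.11, 95% interval -0.29 to 0.17, edgeR adjusted p = 0.921). The sign turned to 0.02 without WT replicate 3 and to 0.01 without WT replicates 3 and 6, and neither passed the threshold. On the log2(TPM + 1) and log2(TPM + 0.1) scales the tested differences were 0.83 and 0.84 (limma adjusted p = 0.431 and 0.436). Taken relative to the median of all genes they were 0.28 and 0.22, and these centred values were not tested.

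Among all 11515 genes tested, 2 passed an adjusted p of 0.05 by edgeR, or 0.0174%, and none of the 7 members was among them. The groups did not overlap in 0.0434% of all genes and overlapped in all 7 members. DESeq2 called 8 genes (0.0695%) and limma-voom with quality weights called 7 (0.0608%), none of them a member. DESeq2 gave no adjusted p for Prkci and Prkcd. At an unadjusted p under 0.05 the share of all genes was 7.89% (3.61% higher in Fmr1-KO and 4.28% lower), and 1 of the 7 members, Prkci, was in that range. This count was 4 of 7 without Fmr1-KO replicate 5, without WT replicate 5 and with limma-voom. It was 3 without Fmr1-KO replicate 4 and with the letter of the animal code as a covariate, 2 without WT replicate 4 or 7, with DESeq2 and with no filter, and 0 on log2(TPM + 0.1). The share of all genes in these settings is not given here. These counts therefore cannot be set against 7.89%, which is from all 16 libraries by edgeR. At the transcript level 11 of the 46 member transcripts had enough counts for a test. None of the 11 passed by edgeR, against 1 of 16772 transcripts overall (0.00596%), and 3 of them (Prkci-001, Prkcb-001 and Prkce-001) had an unadjusted p under 0.05, against 3.91% of all transcripts. All 3 were higher in Fmr1-KO, where the share of all transcripts was 1.85% higher and 2.06% lower. The count was 0 of 11 when WT replicates 3 and 6 were omitted. It was 1 of 11 without any 1 of Fmr1-KO replicates 1, 2 and 6 or WT replicates 2, 3, 6 and 8. For these omissions the share of all transcripts is not given here. DESeq2 called 15 transcripts (0.0894%), none of them from a member, and gave no adjusted p for some of the 11, Prkci-001 and Prkcz-010 among them. The p-values measure the spread between these animals. In bulk tissue, fewer cells of a type and less RNA per cell cannot be told apart.

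**Figure D3:**
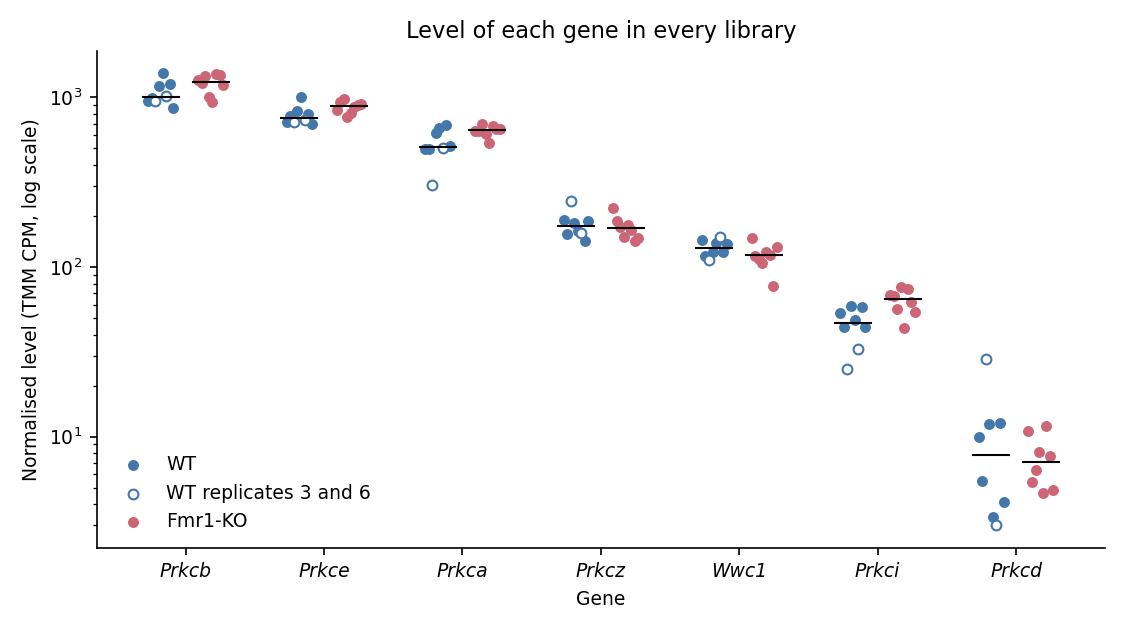
Level of the 7 genes in every library in TMM-normalised CPM (log axis), WT in blue and Fmr1-KO in red, with the group median as a black line and WT replicates 3 and 6 as open circles. The groups overlap in every gene, and the open circles include the lowest WT values of Prkci, Prkca and Prkcd the highest of Prkcz and Prkcd, and both WT extremes of Wwc1.

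Prkci, the other atypical gene, encodes the iota/lambda enzyme of the PAR polarity complex and lies on chromosome 3 (30995747 to 31052959, plus strand). Its level ranged from 44.0 to 76.0 CPM in Fmr1-KO, with a median of 65.0, and from 25.2 to 59.1 CPM in WT, with a median of 46.5. In Fmr1-KO, 7 of 8 libraries were above the WT median and 5 above the highest WT library, while WT replicates 3 and 6 were the lowest of all. The means of 63.0 ± 10.8 and 45.9 ± 11.9 CPM compare with a fitted log2 fold change of 0.41 (edgeR, a fold of 1.33; SE 0.16; 95% interval 0.09 to 0.73). The difference did not pass edgeR's test across all genes (adjusted p = 0.581), where 284 genes had a smaller p. Without WT replicates 3 and 6 the log2 fold change was 0.29 (edgeR adjusted p = 0.656). Prkci-001, which encodes 595 codons, held 92.1 ± 7.27% of the gene in Fmr1-KO and 88.3 ± 11.7% in WT. Its own log2 fold change was 0.47 (SE 0.22, edgeR adjusted p = 0.9999), and 0.27 without WT replicates 3 and 6.

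Prkca and Prkcb are the conventional genes among the members. Prkca (chromosome 11, 107933387 to 108343928, minus strand) encodes the alpha enzyme, which takes part in synaptic plasticity through its binding partner PICK1. It ranged from 539 to 697 CPM in Fmr1-KO, with a median of 643, and from 304 to 689 CPM in WT, with a median of 510. All 8 Fmr1-KO libraries were above the WT median, yet only 1 was above the highest WT library, and 5 WT libraries were below the lowest Fmr1-KO library. The log2 fold change was 0.24 (SE 0.12; 95% interval -0.0036 to 0.49; edgeR adjusted p = 0.630). It was 0.14 without WT replicates 3 and 6, of which the former held the lowest level of all. Nearly all counts belonged to Prkca-001 (672 codons; 98.0 ± 2.68% in Fmr1-KO and 97.6 ± 2.24% in WT).

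Prkcb (chromosome 7, 122288751 to 122634402, plus strand) encodes the beta enzymes and had the highest level of the 7 members per length. It ranged from 945 to 1376 CPM in Fmr1-KO, with a median of 1240, and from 866 to 1386 CPM in WT, with a median of 1005. In Fmr1-KO 7 of 8 libraries were above the WT median, but none was above the highest WT library. The log2 fold change was 0.18 (SE 0.10; 95% interval -0.03 to 0.40; edgeR adjusted p = 0.670), and 0.15 without WT replicates 3 and 6.

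Alternative last exons of Prkcb give the beta I and beta II enzymes, which differ in their C-terminal residues. Prkcb-001 encodes 673 codons, the size of beta II, and Prkcb-003 encodes 671 codons, the size of beta I. Prkcb-002 carries the same 673 codons, runs on to the end of Prkcb-003, and is annotated as a target of nonsense-mediated decay. Prkcb-001 held 44.4% to 50.9% of the gene in Fmr1-KO, with a median of 47.5%, and 35.99% to 48.6% in WT, with a median of 42.7%. All 8 Fmr1-KO libraries were above the WT median, and the ranges overlapped. The means of 47.6 ± 2.22% and 43.1 ± 3.96% differed by 4.53 percentage points (exact permutation p = 0.0120, adjusted p = 0.120 over the 10 measures), and by 3.01 points without WT replicates 3 and 6 (exact permutation p = 0.0493, not adjusted). The Prkcb share comparisons were not in the written plan. The level of Prkcb-001 had a log2 fold change of 0.33 (SE 0.13, edgeR adjusted p = 0.9999). Prkcb-002 held 43.6 ± 3.52% and 44.3 ± 6.05% (exact permutation p = 0.825).

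Prkcb-003, the beta I form, stood at 5.63% to 12.5% of the gene in Fmr1-KO, with a median of 8.33%. In WT it stood at 7.78% to 33.6%, with a median of 9.48%. The WT range was set by replicate 3, as the next WT library held 12.3%. The difference in means was -4.00 percentage points over 16 libraries (exact permutation p = 0.199) and -0.53 without WT replicates 3 and 6 (p = 0.652). Only 33 of the 2527 stretches of 31 bases in Prkcb-003 are missing from Prkcb-002, so the division of reads between those 2 is uncertain.

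**Figure D4:**
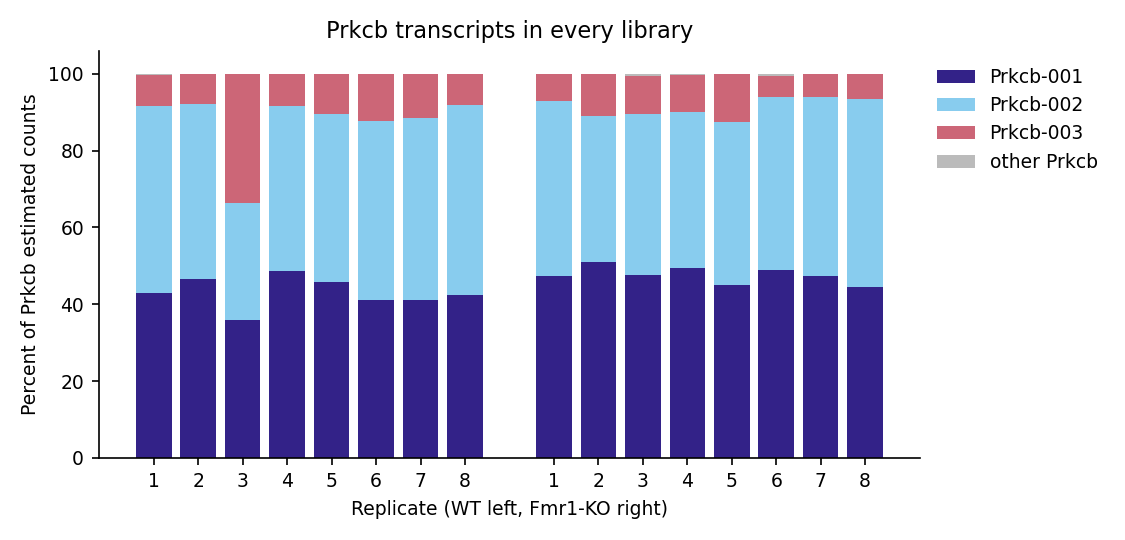
Stacked bars of the percent of Prkcb estimated counts in each transcript, in the 8 WT (left) and 8 Fmr1-KO (right) libraries. Prkcb-001 (dark blue) fills 35.99% to 50.9% of the bars, and Prkcb-003 (red) stands at 33.6% in WT replicate 3 against 5.63% to 12.5% in all other libraries.

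Prkce and Prkcd are the members that respond to diacylglycerol without calcium. Prkce (chromosome 17, 86167785 to 86657919, plus strand) encodes the epsilon enzyme, found in presynaptic terminals and nerve fibres. It ranged from 761 to 975 CPM in Fmr1-KO, with a median of 891, and from 694 to 1002 CPM in WT, with a median of 754. All 8 Fmr1-KO libraries were above the WT median, and none was above the highest WT library, replicate 5. The log2 fold change was 0.16 (SE 0.08; 95% interval -0.01 to 0.33; edgeR adjusted p = 0.646), and 0.13 without WT replicates 3 and 6. Prkce-001, of 737 codons, held 96.7 ± 2.40% of the gene in Fmr1-KO and 95.6 ± 3.57% in WT, with a log2 fold change of 0.19 (SE 0.09, edgeR adjusted p = 0.9999).

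Prkcd (chromosome 14, 30595354 to 30626210, minus strand) encodes the delta enzyme, which in the brain is strong in thalamic neurons. It had 1 to 32.0 estimated counts per library. Its level ranged from 4.67 to 11.5 CPM in Fmr1-KO, with a median of 7.06, and from 3.01 to 28.8 CPM in WT, with a median of 7.76. WT replicate 3 held the highest value, and the next WT library stood at 11.995 CPM. The log2 fold change was -0.37 (SE 0.41; 95% interval -1.22 to 0.47; edgeR adjusted p = 0.857), and it was -0.06 without WT replicates 3 and 6 and turned to 0.0025 without WT replicate 3 and to 0.13 with limma-voom. The summed level of 5 thalamic markers was 28.9 CPM in WT replicate 3 and 70.2 in WT replicate 6, against 6.47 to 19.1 in the other libraries, and its part in the Prkcd value was not tested. WT replicate 6 held the lowest Prkcd level of the 16 libraries (3.01 CPM from 1 count). None of the 5 markers had enough counts for a test. The 13 Prkcd transcripts could not be reliably told apart, given this depth and the sequence they share. Of the 2747 stretches of 31 bases in Prkcd-201, 2 are in no other Prkcd transcript, and Prkcd-002 and Prkcd-004 have none of their own. Prkcd-007 has 906 of 2487. The leading forms of Prkcd, Prkcd-201 and the retained intron form Prkcd-007, held 29.3 ± 41.6% and 27.7 ± 21.7% of the gene in Fmr1-KO and 23.6 ± 34.8% and 32.3 ± 32.2% in WT. No Prkcd transcript had enough counts for a test. Prkcd-002, Prkcd-001, Prkcd-004, Prkcd-011, Prkcd-009 and Prkcd-010 each held a mean of at least 5% in 1 or both groups and each was under 0.5 counts in at least 6 libraries.

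Wwc1, the KIBRA gene, lies on chromosome 11 (35838400 to 35980527, minus strand). It ranged from 77.7 to 149 CPM in Fmr1-KO, with a median of 118, and from 110 to 150 CPM in WT, with a median of 130. In Fmr1-KO 2 of 8 libraries were above the WT median and 2 below the lowest WT library. The means of 116 ± 20.5 and 131 ± 14.2 CPM gave a log2 fold change of -0.16 (SE 0.11; 95% interval -0.39 to 0.07; edgeR adjusted p = 0.735), and the value was also -0.16 without WT replicates 3 and 6. It was -0.09 without Fmr1-KO replicate 7, and -0.48 and -0.54 on the log2(TPM + 1) and log2(TPM + 0.1) scales relative to the median of all genes. Before that centring the tested TPM differences were 0.07 and 0.08 (limma adjusted p = 0.922 and 0.904). Wwc1-001, the transcript of 1104 codons, held 98.6 ± 1.16% of the gene in Fmr1-KO and 96.2 ± 8.46% in WT. Its log2 fold change was -0.13 (SE 0.14, edgeR adjusted p = 0.9999).

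**Figure D5:**
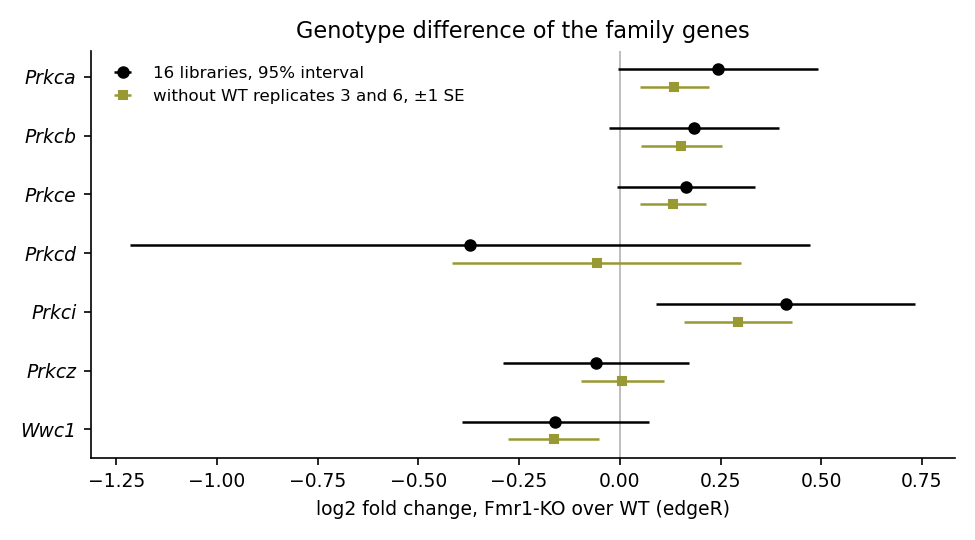
log2 fold change of each of the 7 members, Fmr1-KO over WT, from edgeR, with the 95% interval over 16 libraries (black circles) and the value ± 1 SE without WT replicates 3 and 6 (olive squares). The intervals of all genes but Prkci include 0, and the Prkci interval runs from 0.09 to 0.73 before adjustment over all genes.

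Prkcq and Prkch, the other genes of the diacylglycerol-dependent, calcium-independent class, had few counts. Prkcq stood at 3.65 ± 1.67 CPM in Fmr1-KO and 2.93 ± 2.20 in WT, and Prkch at 1.52 ± 1.32 and 1.15 ± 1.09 CPM. Both were too low for a test.

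Levels of different genes were compared per length, as TPM (transcript abundance scaled by effective length within a library). The median over 16 libraries ran in the order Prkcb (648 TPM), Prkce (245), Prkca (162), Prkcz (112), Wwc1 (56.6), Prkci (29.7), Prkcd (6.89), Prkcq (1.72) and Prkch (0.805). Each gene of this order was above the next within the same library in 16, 15, 14, 15, 12, 16, 16 and 12 of 16 libraries, read from the top. The order of Wwc1 and Prkci was the other way round in 4 libraries. For Prkcq and Prkch it was so in 2 libraries, with both listed at 0 in WT replicates 3 and 6. Among the atypical enzymes Prkcz was thus at a higher TPM level than Prkci. The TPM of a gene sums all its transcripts, short pieces included, so few counts can move it. Wwc1 stood at 144 TPM and 110 CPM in WT replicate 3, with 20.7 estimated counts in the 359 nt Wwc1-002. Prkci stood at 78.4 TPM and 61.9 CPM in Fmr1-KO replicate 7, with 29.3 in the 614 nt Prkci-002.

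Some members varied together from mouse to mouse. Over 16 libraries, the log2 level of Prkcb correlated with that of Prkce (Pearson r = 0.885, Spearman rho = 0.832; permutation p adjusted over 21 member pairs 0.00063 and 0.0020). It also correlated with Prkca (r = 0.717, rho = 0.821; adjusted permutation p = 0.0017 and 0.0020), and Prkca with Prkce (r = 0.697, rho = 0.785; adjusted permutation p = 0.0036 and 0.0041). Without the 2 libraries farthest from the median on the x axis these r values were 0.897, 0.882 and 0.803. Within Fmr1-KO they were 0.740, 0.910 and 0.709, and within WT 0.943, 0.654 and 0.604. Libraries share their scaling between genes, and its part in these values was not tested. Prkci and Prkca had r = 0.828 (adjusted permutation p = 0.0017) but rho = 0.574 (adjusted p = 0.116), and r was 0.580 without the 2 farthest libraries, WT replicates 3 and 6. Prkcz and Wwc1, whose proteins bind each other, gave r = 0.312 and rho = 0.238 (adjusted permutation p = 0.451 and 0.612). For this pair r was 0.442 without the 2 farthest libraries, 0.612 without WT replicates 3 and 6, 0.706 within Fmr1-KO and -0.309 within WT.

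By Pearson r over the 16 libraries and the 14 without WT replicates 3 and 6, the genes whose levels were most like Prkcz were mt-Nd6 (0.81 and 0.79), Fgf1 (0.79 and 0.75) and AU040320 (0.77 and 0.75). For Wwc1 they were Dusp7 (0.80 and 0.83), Tmprss6 (0.78 and 0.81) and 1700030K09Rik (0.78 and 0.77). These were the highest of 11515 genes, picked by that value.

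Genes that act with protein kinase C were read from 5 lists of 62 symbols, 61 of them in the files and 55 with enough counts. None of the 55 passed the adjusted threshold by edgeR, against 0.0174% of all genes. At an unadjusted p under 0.05 in either direction there were 2 of 55 (Plcb1 and Add2), against 7.89% of all genes. Both were higher in Fmr1-KO, where the share of all genes was 3.61% higher and 4.28% lower. That count depended on the libraries and the tool. It was 10 without WT replicate 5, 7 without Fmr1-KO replicate 5, 4 without WT replicate 1 or 7, 9 with limma-voom and 4 with DESeq2, and it was 1 without any 1 of Fmr1-KO replicates 1, 3 and 8 or WT replicates 2, 3 and 8. The share of all genes in these settings is not given here. These counts therefore cannot be set against the shares above, which are from all 16 libraries by edgeR. Of the 55, 31 were higher and 24 lower in Fmr1-KO, with a median log2 fold change of 0.03 beside -0.01 over all genes tested. Of all 11515 genes tested, 5538 were higher and 5977 lower, and the direction counts of each list below stand beside these. The 7 members had 4 higher and 3 lower, with a median of 0.16.

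Among the enzymes that start or end the signal, 9 of 16 were higher. Plcb1, a phospholipase C that makes diacylglycerol downstream of group I metabotropic glutamate receptors, stood at 319 ± 37.4 CPM in Fmr1-KO and 275 ± 39.3 in WT. Its log2 fold change was 0.22 (SE 0.10, edgeR adjusted p = 0.624), with 7 of 8 Fmr1-KO libraries above the WT median. Of the diacylglycerol kinases, which remove the activating lipid, 6 of 9 were higher, and Dgkh had the smallest p (log2 fold change 0.45, SE 0.23, edgeR adjusted p = 0.657). Of the substrates and targets, 6 of 12 were higher. Add2, the beta subunit of the membrane skeleton protein adducin, stood at 803 ± 79.9 and 664 ± 93.6 CPM, and all 8 Fmr1-KO libraries were above the WT median. The log2 fold change was 0.27 (SE 0.09, edgeR adjusted p = 0.568) and 0.23 without WT replicates 3 and 6.

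Among the scaffolds and partners 8 of 13 were higher, and Synpo, which encodes synaptopodin of the spine apparatus, had the smallest p (log2 fold change 0.16, SE 0.09, edgeR adjusted p = 0.670). Of the related kinases 2 of 5 were higher, with a median of -0.38. Prkd3, a protein kinase D, had the smallest p there (log2 fold change -0.82, SE 0.55, edgeR adjusted p = 0.727), at 5.09 ± 3.75 CPM in Fmr1-KO and 9.42 ± 11.8 in WT. Without WT replicates 3 and 6 its value was -0.29 and the median of its list -0.08.

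The libraries differed in depth. Total estimated counts were 1480966 to 3275003 in 14 libraries, 878484 in WT replicate 3 and 515103 in WT replicate 6. The top 10 genes took 10.35% of counts in WT replicate 3 and 31.59% in WT replicate 6, against 3.73% to 6.06% in the other libraries. Protein-coding transcripts took 80.67% and 58.38%, against 87.59% to 91.8%. The targeted gene Fmr1 ranged over 8.44 to 32.0 CPM (Fmr1-KO) against 39.6 to 99.7 CPM (WT), with no overlap. All 5 markers of CA1 pyramidal cells were present, summing to 2257 to 2442 CPM in Fmr1-KO and 1991 to 2534 in WT. WT replicate 3 had the highest sums of 5 markers each for astrocytes (1376 CPM, against at most 569 in other libraries), microglia (307 against at most 194) and vessels (264 against at most 231). In each of astrocytes, oligodendrocytes, microglia and vessels, 5 of 5 markers had a lower fitted level in Fmr1-KO over all 16 libraries. Of these, 1 astrocyte and 2 vessel markers had an unadjusted p under 0.05 (edgeR), as had 2 of 5 CA1 markers. Of all 11515 genes, 5977 were lower and 7.89% had such a p. Also lower were 3 of 5 CA1, 4 of 6 interneuron and 1 of 2 tested dentate granule markers. Without WT replicates 3 and 6, astrocyte sums were 390 to 486 CPM (Fmr1-KO) and 358 to 569 (WT). Vessel sums were then 46.7 to 111 and 63.4 to 96.4 CPM, and microglia sums 95.1 to 194 and 122 to 148. The part of these cell types in the values of the members was not tested. The fold change of each member is given with and without WT replicates 3 and 6. Summed markers of choroid plexus were 30.0 to 111 CPM, with Folr1 at 0 in every library.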

How the data were processed

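RNA libraries from CA1 of 16 mice were read on an Illumina HiSeq (per the labels' protocols). Tools named in the submitters' processing notes are kallisto, cutadapt, FastQC and DESeq2. The sources used here give no versions, roles or transcript index. The deposited estimated counts are reads that the authors' quantification divided among transcripts, so forms that share sequence trade counts. The deposited TPM values are scaled by effective length within each library. The deposited files also give transcript lengths in nucleotides.

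Estimated counts were summed per gene symbol, rounded and tested with edgeR 4.0.16 (quasi-likelihood, TMM, filterByExpr, minimum count 10) in R 4.3.3, with Benjamini-Hochberg adjustment over all 11515 genes or 16772 transcripts and a threshold of 0.05. The script was tested on simulated data. The SE of a log2 fold change comes from the quasi-likelihood F statistic. Shares and class levels were tested by exact two-sided permutation of the libraries (SciPy 1.17.1; smallest possible p 0.00016), and correlations with 100000 permutations of log2(CPM + 0.5). Alternatives were DESeq2 1.42.0, its size factors, library totals, no filter, limma 3.58.1 on TPM with pseudocounts of 1 and 0.1 and on weighted voom values, the letter of the animal code as a covariate, other length limits, and omission of libraries. Coding lengths and positions came from GENCODE M21 (GRCm38), matched by identifier, and may differ from the authors' index.

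The 7 members and the gene lists were chosen with earlier results of these data known. Named were all members, the other family genes (1 item is not reported here), from each list the genes with an unadjusted p under 0.05 or else the smallest p, the 3 genes most like Prkcz and Wwc1, and member transcripts with at least 5% of their gene. Of the 10 transcript measures, the written plan named the Prkcz short-transcript share and the level of each length class. The shares of Prkcz-001, Prkcz-002 and the Prkcb transcripts were not in it, and several of the 10 restate the same counts. The Prkcb share comparisons without libraries, among coding transcripts and in TPM were added after the data were seen. Protein sequences were not used here. Rack1 was listed under 2 names, of which the files use Gnb2l1.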

Additional observations from a re-analysis of the deposited data

Results flagged for a closer look

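In 52 groups of 8 libraries, 9 had a highest or lowest value whose gap to its neighbour was a large part of the group's range by Dixon's test. Chance gives about 1 in 20 where groups are independent and values normally distributed, which does not hold here. Several flags restate the same reads, such as the Prkcb-003 level and shares in WT replicate 3. The number of flags is therefore not read against chance. Of the 9, 6 belong to WT replicate 3.

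At the gene level WT replicate 3 held the highest WT value of Prkcz (245 CPM, next 190.4) and of Prkcd (28.8 CPM, next 11.995). WT replicate 5 held the highest WT value of Prkce (1002 CPM, next 828). For Prkcb, WT replicate 3 had 322 CPM of Prkcb-003 (next 145), which was 33.6% of the gene (next 12.3%) and 48.3% of the Prkcb-001 and Prkcb-003 counts (next 23.1%), and it had the lowest share of Prkcb-002 in WT (30.4%, next 42.9%). This library has 878484 counts and the highest astrocyte, microglia and vessel marker sums, and their part was not tested.

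Fmr1-KO replicate 3 held 19.3% of its Prkcz counts in the full-length Prkcz-001 (next 2.90%), so that Prkcz-002 made up 79.6% of the counts of those 2 forms (next 96.7%). It has 2979481 counts, within the range of the other libraries.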

How the results depend on the processing

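Of 605 values recomputed under alternatives, 593 kept their direction and side of the threshold. No member gene, member transcript or listed pathway gene passed the adjusted threshold in any alternative that gave it an adjusted p. DESeq2 gave none for Prkci, Prkcd, Prkci-001, Prkcz-010, Prkcb-003, Wwc1-001, Dgkh and Prkd3. Directions of genes on the TPM scales were read relative to the median of all genes. Read so, the signs of Prkcz and Prkcd turned, both far from the threshold. Prkcz became 0.28 on log2(TPM + 1), with and without a filter, and 0.22 on log2(TPM + 0.1), both relative to a shift of 0.55 and 0.62 in the median of all genes, 0.0060 without WT replicates 3 and 6 and 0.0175 without WT replicate 3 (range with each library left out -0.1178 to 0.0175). Prkcd became 0.13 with limma-voom and 0.0025 without WT replicate 3. The TPM tests used differences before centring. With pseudocounts of 1 and 0.1 these were 0.83 and 0.84 for Prkcz, 0.31 and 0.44 for Prkcd, and 0.07 and 0.08 for Wwc1. Before centring, the signs of Prkcd and Wwc1 thus also turned on TPM. The cause was not tested.

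The short-transcript share of Prkcz (3.68 points) passed an unadjusted 0.05 among protein-coding transcripts (1.11, from few counts), as a share of TPM (15.4), without Fmr1-KO replicate 8 (4.58) and without WT replicate 5 (4.68). It turned to -0.51 when classes followed coding length, which compares other transcripts, and ranged from 2.80 to 4.68 when each library was left out. Limits of 1500 and 2500 nt gave the same value as 2000 nt. No paired analysis was possible because the labels give no replicate numbers shared by the genotypes. Depth limits Prkcd, Prkch and Prkcq, and sequence shared with other Prkcz transcripts limits Prkcz-001.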
